A study of Homo sapiens with 6 samples.

Results

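The genes described here encode 10 enzymes of serine synthesis and one-carbon folate metabolism: PHGDH, PSAT1, PSPH, SHMT1, SHMT2, MTHFD1, MTHFD2, MTHFD1L, ALDH1L1 and ALDH1L2. They were chosen by name, 10 of the 56794 genes in the authors' deposited table, and each gene's level was the sum of its transcripts' group means with the authors' added 1 taken off. RNA was sequenced from 6 libraries of HEK293, a human embryonic kidney line used to make recombinant protein. The 3 CASP8AP2 mutant libraries came from HEK293 cells that carry a luciferase reporter and a CRISPR deletion in CASP8AP2, and the 3 parental libraries from the same reporter line without the deletion. Both groups were grown in the same serum-containing medium and had no further treatment named in the labels. The sources used here do not say whether the mutant line was 1 clone. By its title, the study asked how loss of the gene bears on recombinant protein expression and the cell cycle. The values are group means, so no value of a single library and no error between replicates is printed. The only measure of replicate spread is the p-value in the authors' deposited table, and nothing in the labels says that the replicates were separate cultures, so that spread may be technical.

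CASP8AP2 itself stood at 15.7 in mutant and 15.9 in parental libraries, and as the labels do not place the deletion within the gene, this RNA level does not check them. All 8 HEK293 marker genes reached a level of 1 in parental libraries, and all but NEFM and LHX1 did in mutant libraries. The neurofilament genes among them lay far apart, NEFM at 0.0690 in mutant and 8.63 in parental libraries and NEFL at 434 in mutant and 35.7 in parental libraries. In either group 0 of 5 blood cell and 0 of 5 hepatocyte markers did. Of 5 fibroblast markers 2 did, COL1A1 and LUM, and the list summed to 7.19 in mutant and 4.14 in parental libraries; the part of these markers in the results was not tested. Reads per library were not analysed here. More transcripts were above 1e-06 in the mutant group alone (20311) than in the parental group alone (9003). The log2 ratio of all genes followed the GC content of their transcripts. Its running median at a gene's GC content is given below for PHGDH, PSAT1, SHMT2, MTHFD2 and ALDH1L2. It is not given for single genes of the pathway lists, which the trend touches as well.

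Cells make serine from a glycolytic intermediate in 3 steps. PHGDH oxidises phosphoglycerate, PSAT1 transfers an amino group from glutamate, and PSPH removes the phosphate. Serine hydroxymethyltransferases then split serine into glycine and a one-carbon unit carried on tetrahydrofolate, SHMT1 in the cytosol and SHMT2 in mitochondria. In mitochondria MTHFD2 oxidises that unit and MTHFD1L releases it as formate. Cytosolic MTHFD1 takes formate up again for purine and thymidylate synthesis, and the ALDH1L enzymes burn formyl groups to carbon dioxide while making NADPH. In many mammalian cells the serine synthesis genes and the mitochondrial branch are switched on by the transcription factor ATF4 when amino acids run short.

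SHMT2 has transcripts with 2 coding starts, shown here because transcripts of both kinds are described below. In SHMT2-201 coding began at position 57229779 of chromosome 12 (plus strand, GRCh38, GENCODE release 29), and in SHMT2-202, SHMT2-203 and SHMT2-205 it began at 57230833, in the next coding exon. The first line gives the coding start of the longer form across 2 exons, in lower case, with the inner start codon in capitals; the second gives the inner start alone.
SHMT2-201 coding start: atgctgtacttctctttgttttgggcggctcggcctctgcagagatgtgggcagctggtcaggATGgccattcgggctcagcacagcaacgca
SHMT2-202 coding start: ATGgccattcgggctcagcacagcaacgca
The 63 bases before the inner start are 21 codons, and the 1449 coding bases from there on, 483 codons, were the same in both forms. The leader of the long form holds the signal for import into mitochondria. The protein made from the inner start, known as SHMT2alpha, lacks it and is found in cytosol and nucleus.

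The enzymes did not lie on one side. SHMT2, which encodes mitochondrial and leaderless forms, and mitochondrial ALDH1L2 stood higher in the mutant libraries, and PSAT1 of serine synthesis and MTHFD1 of the cytosol stood lower. These gene differences were not tested, and no single transcript of these genes passed correction for multiple tests over the whole table. PHGDH, MTHFD2 and SHMT1 lay slightly lower, PSPH was about level, and MTHFD1L was slightly higher. ALDH1L1 was near silent in both groups. Apart from it, all 9 reached a level of 1 in both groups. Fewer cells with an RNA and less of it per cell cannot be told apart in such bulk libraries.

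**Figure D1:**
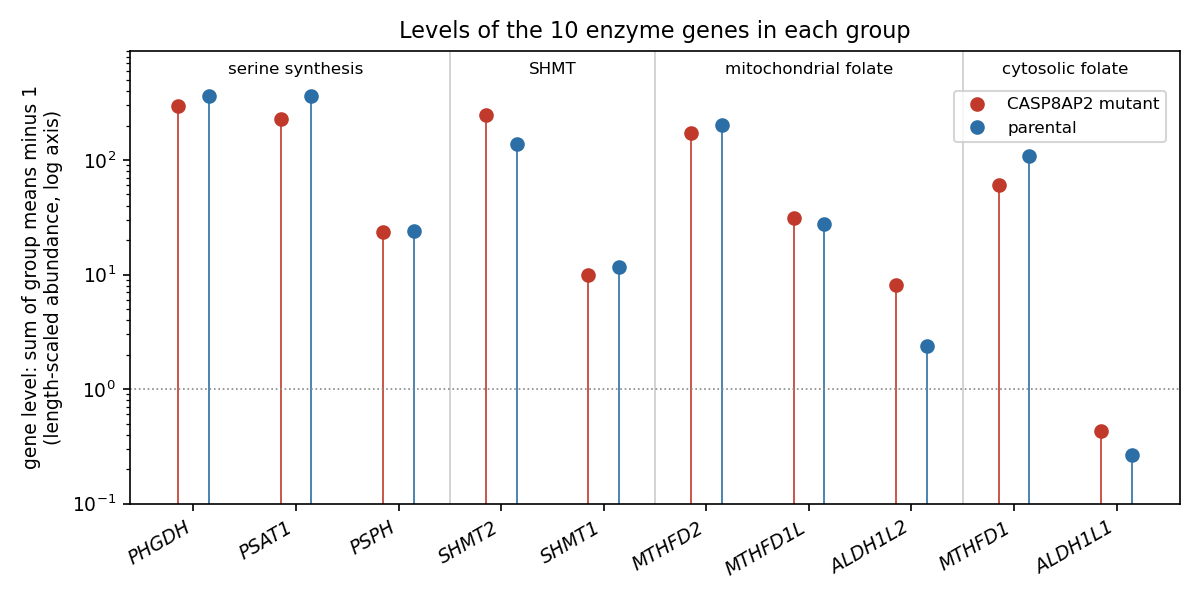
Level of each enzyme gene on a log axis (sum of the authors' group means minus 1, length-scaled abundance) in the mutant group (red, left of each pair) and the parental group (blue, right), ordered by role; each point is 1 group mean over 3 libraries and the dotted line marks a level of 1. SHMT2 and ALDH1L2 stand higher in the mutant group, at 247 and 8.18, and PSAT1 and MTHFD1 stand lower, at 230 and 61.0.

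The log2 ratios below are of gene levels, mutant over parental, with 1 added to both. Of the 9 measured genes 3 were above 0 and 6 below, with a median of -0.19. Among all 14856 genes with a level of at least 1 in either group, 49.4% were above 0, 50.6% were below 0 and the median was -0.01. A log2 ratio of 0.5 or higher was held by 2 of the 9, SHMT2 and ALDH1L2, against 11.5% of all genes, and one of -0.5 or lower by 2, PSAT1 and MTHFD1, against 11.3%. The summed level of all 10 was 1079 in mutant and 1243 in parental libraries.

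**Figure D2:**
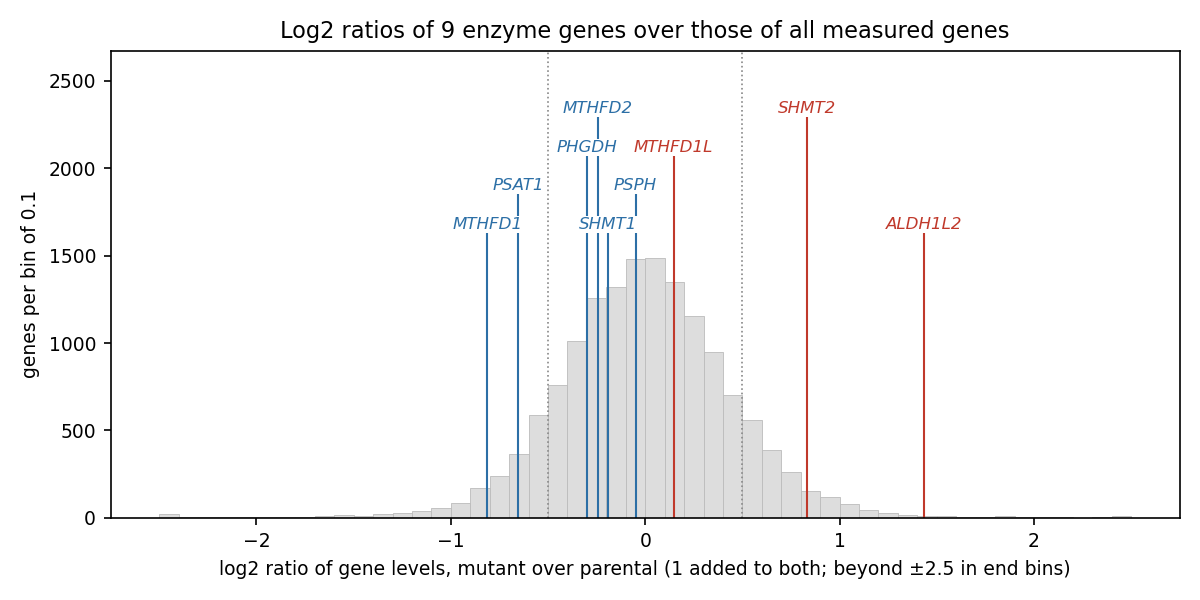
Histogram of the log2 ratio of gene levels, mutant over parental, for all 14856 measured genes (bars, genes per bin of 0.1, values beyond 2.5 placed in the end bins), with the 9 measured enzyme genes as lines, red above 0 and blue below. Dotted lines mark -0.5 and 0.5; ALDH1L2 at 1.44 and SHMT2 at 0.83 lie to the right, MTHFD1 at -0.81 and PSAT1 at -0.65 to the left.

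PHGDH (ENSG00000092621.12; GRCh38 chromosome 1, 119648411 to 119744226, plus strand) catalyses the committed step of serine synthesis and had the highest level of the 10 in the mutant group. It stood at 295 in mutant and 363 in parental libraries, 81.2% of the parental level and a log2 ratio of -0.30. Its coding transcripts summed to 170.3 in mutant and 225 in parental libraries. PHGDH-202, with 12 exons and 532 codons, had 94.6 in mutant and 127 in parental libraries (p 0.00364 in the authors' deposited table). PHGDH-210 had 4.80 in mutant and 10.6 in parental libraries (p 0.0481 in the authors' deposited table). Transcripts annotated as retaining an intron lay the other way, at 47.6 in mutant and 41.8 in parental libraries, or 16.1% of the gene in mutant and 11.5% in parental libraries. PHGDH-230, of 12 exons with no annotated coding frame, was 68.2 in mutant and 85.9 in parental libraries. At the GC content of PHGDH-202 (57.9%) the running median of all genes was 0.12, and without the trends on GC and length the ratio was -0.38.

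PSAT1 (ENSG00000135069.13; chromosome 9, 78297143 to 78330093, plus strand) had the largest difference in level among the 10, at -133 for mutant minus parental. It stood at 230 in mutant and 363 in parental libraries, 63.4% of the parental level, with a log2 ratio of -0.65. Nearly all of it was PSAT1-202, of 9 exons, with 226 in mutant and 362 in parental libraries (p 0.0563 in the authors' deposited table). The shorter PSAT1-201, of 8 exons, lay the other way at 4.10 in mutant and 1.66 in parental libraries (p 0.144 in the authors' deposited table). Among all genes 5.94% had a ratio as low as that of PSAT1, and among the 710 genes with a level of at least 100 in either group 8.59% did. At its GC content of 42.3% the running median was -0.11, and with the trends taken out PSAT1 stood at -0.52. Its pseudogenes PSAT1P4 (2.08 in mutant and 3.90 in parental libraries) and PSAT1P3 (1.74 in mutant and 2.52 in parental libraries) lay the same way, and reads may be split between such near copies.

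PSPH, on chromosome 7, frees serine from phosphoserine and was about level at 23.4 in mutant and 24.2 in parental libraries, a log2 ratio of -0.05. Its main transcript PSPH-202 had 12.4 in mutant and 14.4 in parental libraries (p 0.451 in the authors' deposited table). The minor PSPH-204 was at 0.0139 in mutant and 0.411 in parental libraries (p 0.00489 in the authors' deposited table). PHGDH and PSAT1 were equal in parental libraries, with PSAT1 over PHGDH at 0.782 in mutant and 1.00 in parental libraries. Summed over the 3 steps, serine synthesis stood at 549 in mutant and 751 in parental libraries.

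SHMT2 (ENSG00000182199.10), the gene of the mitochondrial serine hydroxymethyltransferase and of its leaderless form, lies at 57229327 to 57234935 on the plus strand of chromosome 12 and stood on the other side from the serine synthesis genes. Its level was 247 in mutant and 139 in parental libraries, 179% of the parental level and a log2 ratio of 0.83. Among all genes 2.96% lay as high, and among those at 100 or more 3.80%. All of its 15 transcripts with a level of at least 1 in either group were higher in the mutant group. For comparison, 304 genes had at least 10 such transcripts, and in 11.5% of them all were higher in the mutant group. The transcripts of a gene share reads, so they are not separate pieces of evidence.

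The most abundant coding transcript of SHMT2, in both groups, was one with the inner start. SHMT2-202 had 53.5 in mutant and 24.8 in parental libraries (p 0.0324 in the authors' deposited table). SHMT2-203 had 17.4 in mutant and 8.01 in parental libraries (p 0.0297 in the authors' deposited table), and SHMT2-205 had 10.8 in mutant and 5.80 in parental libraries (p 0.340 in the authors' deposited table). Together these 3 stood at 81.7 in mutant and 38.6 in parental libraries, a log2 ratio of 1.06. The long coding transcripts with the outer start, SHMT2-201 and SHMT2-232, together stood at 22.9 in mutant and 14.2 in parental libraries, a log2 ratio of 0.66. Most of that was SHMT2-232, with 18.7 in mutant and 11.5 in parental libraries, whose frame has 494 codons and differs from the 504 codons of SHMT2-201. The difference between the 2 starts was not tested, since single libraries were not given and transcript levels of 1 gene depend on how shared reads were divided.

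Other SHMT2 transcripts lay on the same side. SHMT2-226, which is annotated for nonsense-mediated decay and was the most abundant one, had 53.9 in mutant and 34.1 in parental libraries (p 0.0164 in the authors' deposited table). Its frame begins at the outer start, as does that of SHMT2-231, also annotated for decay. Together these 2 stood at 62.9 in mutant and 40.1 in parental libraries, a log2 ratio of 0.63, and they were not in the sums by start above. SHMT2-225, of 2 exons with a retained intron, had 12.6 in mutant and 6.79 in parental libraries, and no enzyme transcript had a smaller p-value than its 0.00238 in the authors' deposited table. SHMT2-207 had 2.52 in mutant and 1.02 in parental libraries (p 0.0496 in the authors' deposited table), and SHMT2-206 had 0.305 in the mutant group and about 0 in the parental group (p 0.0420 in the authors' deposited table). By annotated type, coding transcripts summed to 133 in mutant and 70.1 in parental libraries, decay targets to 72.9 in mutant and 46.6 in parental libraries, and those retaining an intron to 31.4 in mutant and 16.9 in parental libraries. The GC content of SHMT2-226 was 56.0%, where the running median was 0.09, and the ratio of SHMT2 with the trends taken out was 0.76.

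SHMT1, the cytosolic form on chromosome 17, was low and little different, at 9.99 in mutant and 11.6 in parental libraries, a log2 ratio of -0.19. Its main transcript SHMT1-201 had 5.90 in mutant and 7.11 in parental libraries (p 0.560 in the authors' deposited table). SHMT1-205, which retains an intron, was at 0.169 in mutant and 0.694 in parental libraries (p 0.0151 in the authors' deposited table). SHMT2 exceeded SHMT1 by 24.8-fold in mutant and 11.99-fold in parental libraries.

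**Figure D3:**
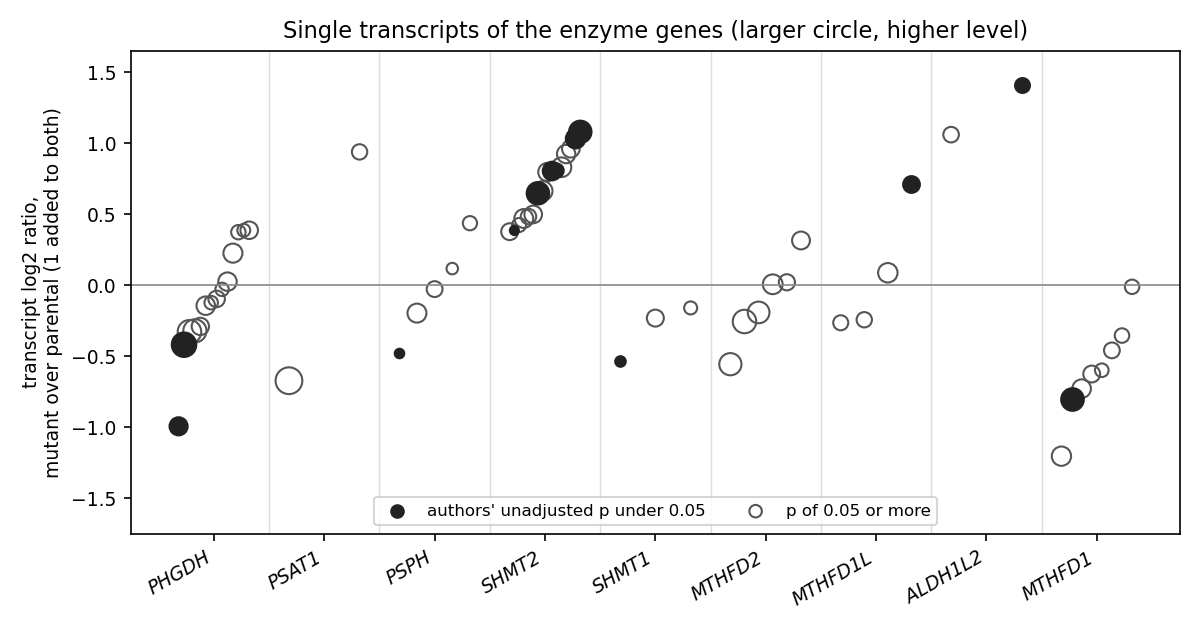
Log2 ratio of single transcripts, mutant over parental with 1 added to both, for transcripts with a level of at least 1 in either group or an unadjusted p under 0.05 and a level of at least 0.2; circles grow with the level, and filled circles have an unadjusted p under 0.05 in the authors' deposited table. All SHMT2 and both ALDH1L2 transcripts lie above 0, and all MTHFD1 and SHMT1 transcripts below it. Those of PHGDH, PSAT1, PSPH, MTHFD2 and MTHFD1L lie on both sides.

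MTHFD2 and MTHFD1L, which turn the mitochondrial one-carbon unit into formate, lay closer to level than SHMT2. MTHFD2, on chromosome 2, stood at 172 in mutant and 204 in parental libraries, a log2 ratio of -0.24, and -0.06 without the trends on GC and length. At the GC content of MTHFD2-203 (41.0%) the running median of all genes was -0.14. The longest coding frame, MTHFD2-201 with 350 codons, had 32.9 in mutant and 48.8 in parental libraries (p 0.204 in the authors' deposited table). The most abundant transcript, MTHFD2-203, had 69.5 in mutant and 83.3 in parental libraries (p 0.590 in the authors' deposited table), and MTHFD2-202 had 18.9 in both groups. SHMT2 over MTHFD2 was 1.44 in mutant and 0.680 in parental libraries, so the order of these neighbours in the pathway was reversed. Of the MTHFD2 pseudogenes MTHFD2P7 reached a level of 1, and it had 2.04 in mutant and 1.93 in parental libraries.

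MTHFD1L, on chromosome 6, releases formate in mitochondria and stood at 31.0 in mutant and 27.9 in parental libraries, a log2 ratio of 0.15. Its higher level lay in a short transcript. MTHFD1L-201, of 8 exons and 275 codons, had 6.60 in mutant and 3.63 in parental libraries (p 0.0199 in the authors' deposited table). The 3 transcripts of 28 exons summed to 23.2 in mutant and 23.8 in parental libraries, and the main one, MTHFD1L-212, had 17.1 in mutant and 16.0 in parental libraries (p 0.625 in the authors' deposited table). The short form took 21.3% of the gene's level in mutant and 13.0% in parental libraries.

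ALDH1L2 (ENSG00000136010.13; chromosome 12, 105019784 to 105084577, minus strand) oxidises formyl-tetrahydrofolate in mitochondria and had the largest ratio of the 10. It stood at 8.18 in mutant and 2.39 in parental libraries, 342% of the parental level and a log2 ratio of 1.44, and 0.370% of all genes lay as high. ALDH1L2-201, the coding transcript of 23 exons, had 4.42 in mutant and 1.60 in parental libraries (p 0.0994 in the authors' deposited table). ALDH1L2-203, of 19 exons and annotated as retaining an intron, had 3.52 in mutant and 0.699 in parental libraries (p 0.00524 in the authors' deposited table). Without the transcripts that have no coding frame the log2 ratio was 1.08. With a GC content of 42.1%, where the running median was -0.11, ALDH1L2 stood at 1.46 once the trends were taken out.

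MTHFD1, the cytosolic enzyme with dehydrogenase, cyclohydrolase and formyl-tetrahydrofolate synthetase activities, lies at 64388031 to 64463457 on the plus strand of chromosome 14 (ENSG00000100714.15) and had the lowest ratio of the 10. It stood at 61.0 in mutant and 108 in parental libraries, 56.5% of the parental level and a log2 ratio of -0.81, and 3.19% of all genes lay as low. All 8 of its transcripts with a level of at least 1 were lower in the mutant group. Of these, MTHFD1-212 was about level, at 2.95 in mutant and 2.98 in parental libraries, and only MTHFD1-201 had an unadjusted p under 0.05. Of the 304 genes with at least 10 transcripts at that level, 2.30% had all of them lower, but MTHFD1 has too few to be counted there. As for SHMT2, transcripts that share reads are not separate pieces of evidence. MTHFD1-201, the main coding transcript of 28 exons and 935 codons, had 33.04 in mutant and 58.5 in parental libraries (p 0.0343 in the authors' deposited table). Coding transcripts summed to 38.4 in mutant and 68.1 in parental libraries, and those retaining an intron to 20.4 in mutant and 36.8 in parental libraries. Its GC content was 48.6%, and the ratio with the trends taken out was -0.80. The pseudogene MTHFD1P1 had 1.16 in mutant and 1.91 in parental libraries.

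ALDH1L1, the cytosolic counterpart of ALDH1L2 and a gene known from liver and astrocytes, had 0.431 in mutant and 0.266 in parental libraries over its 14 transcripts with group means, and none reached a level of 1. It was left out of the counts of measured genes. The sum of the mitochondrial enzymes MTHFD2, MTHFD1L and ALDH1L2 was 211 in mutant and 234 in parental libraries, and that of SHMT1, MTHFD1 and ALDH1L1 in the cytosol was 71.5 in mutant and 120 in parental libraries. SHMT2 was put in neither sum, since its transcripts encode forms with and without the mitochondrial leader. MTHFD1 over its mitochondrial counterpart MTHFD1L was 1.97 in mutant and 3.87 in parental libraries. MTHFD2 made up most of the mitochondrial sum and MTHFD1 most of the cytosolic one, and no error can be put on them.

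The counts of single transcripts by p-value were as follows. Of 137 enzyme transcripts with a p-value 0 passed 0.05 by the Benjamini-Hochberg adjusted p in the authors' deposited table. Of all 140552 transcripts 0.0221% passed, 0.0135% higher and 0.00854% lower in the mutant group. Among the enzymes the smallest adjusted p was 0.406, held by SHMT2-225. An unadjusted p under 0.05 was held by 14 of the 137 (10.2%), 9 higher and 5 lower in the mutant group, against 5.79% of all transcripts (3.3% higher and 2.48% lower). At a level of at least 1 it was held by 10 of 57 (17.5%), against 11.8% of all such transcripts (5.78% higher and 6.01% lower). SHMT2 alone gave 5 of those 10, and without it 5 of 42 transcripts remained, close to the share of all transcripts. The authors' second p-value, for the factor named Type, gave 0 adjusted calls as well.

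Genes on both sides of SHMT2 tended to lie higher too. Of 54 other measured genes whose middle lay within 1 Mb of that of SHMT2 on chromosome 12, 47 were higher in the mutant group. Their median log2 ratio was 0.29, and 11 of the 54 reached 0.5, against 11.5% of all genes. Among them was DDIT3, a stress-induced transcription factor gene that is also in the list of ATF4 targets below. It stood at 35.9 in mutant and 21.1 in parental libraries (main transcript, p 0.203 in the authors' deposited table). Another was R3HDM2, at 27.97 in mutant and 14.1 in parental libraries (main transcript, p 0.182 in the authors' deposited table). Medians in windows of 2 Mb ran from 0.19 to 0.31 between 6 Mb before and 2 Mb after SHMT2, and were -0.18 and -0.16 from 6 to 10 Mb before it. Of 6007 genes with at least 20 measured neighbours in the same distance, 17.3% had a neighbour median as high as that of SHMT2, and 6.96% had as large a share of neighbours higher. SHMT2 exceeded its neighbours' median by 0.54. The part of the region in the level of SHMT2 was not tested. For the other measured enzymes the neighbour medians lay between -0.23 for PSPH and 0.16 for PSAT1, and those of MTHFD1 and ALDH1L2 were both 0.08.

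**Figure D4:**
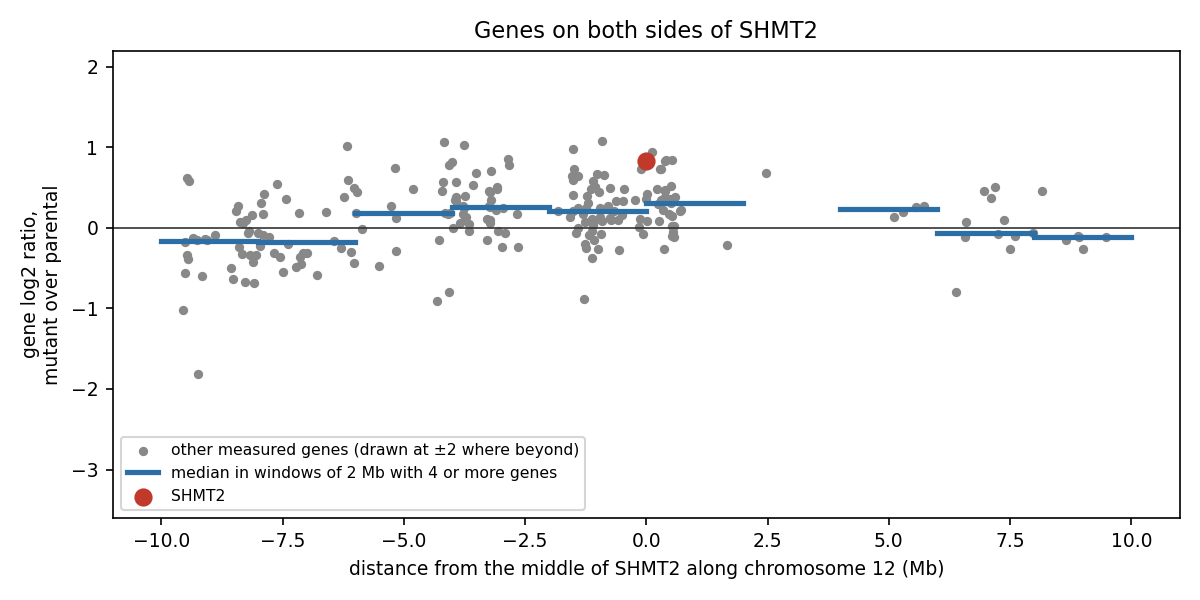
Log2 ratio of gene levels, mutant over parental, for measured genes within 10 Mb of SHMT2 on chromosome 12 (grey points), by distance from the middle of SHMT2 in Mb; blue bars are medians in windows of 2 Mb with at least 4 genes, and SHMT2 is red at 0.83. Medians are above 0 near SHMT2, at 0.21 and 0.31 in the windows next to it, and below 0 in the outermost windows on both sides.

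Genes that supply and recycle folate lay on both sides. The p-values printed for single genes of this list and of the lists below are unadjusted. In each of these lists 0 main transcripts passed 0.05 by the adjusted p in the authors' deposited table. Where no p-value is printed for a gene named from these lists, that of its main transcript was above 0.05. TYMS, which makes thymidylate from methylene-tetrahydrofolate, stood at 109 in mutant and 159 in parental libraries (TYMS-203, p 0.0151 in the authors' deposited table). GGH, the lysosomal hydrolase of folate polyglutamates, stood at 21.3 in mutant and 33.7 in parental libraries (GGH-201, p 0.0146 in the authors' deposited table). SLC25A32, the mitochondrial folate carrier, stood at 4.37 in mutant and 7.95 in parental libraries (SLC25A32-201, p 0.0894 in the authors' deposited table). MTHFS, which returns formyl-tetrahydrofolate stores to the active pool, stood at 28.1 in mutant and 36.6 in parental libraries (MTHFS-201, p 0.393 in the authors' deposited table). Of 10 measured genes in this list 3 lay higher and 7 lower, where 50.6% of all genes lay lower, and the median was -0.13, or -0.25 without the trends on GC and length. A ratio of -0.5 or lower was held by 3 of the 10, TYMS, GGH and SLC25A32, against 11.3% of all genes. Of the 10, 2 had a main transcript lower at an unadjusted p under 0.05, against 8.63% of all genes.

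The glycine cleavage system, which feeds one-carbon units from glycine into mitochondrial folate, was mixed. GCSH, its lipoyl carrier, stood at 19.9 in mutant and 32.5 in parental libraries (GCSH-210, p 0.000529 in the authors' deposited table). DLD, its dehydrogenase shared with other complexes, stood at 22.2 in mutant and 31.9 in parental libraries (DLD-201, p 0.000751 in the authors' deposited table). The adjusted p in the authors' deposited table was 0.260 for GCSH-210 and 0.279 for DLD-201. GLDC, the decarboxylase, had 8.28 in mutant and 9.83 in parental libraries, and AMT, the aminomethyltransferase, 2.81 in mutant and 2.01 in parental libraries. Of the 5 genes 2 lay higher and 3 lower, where 50.6% of all genes lay lower, and the median was -0.22, and -0.14 without the trends on GC and length. GCSH and DLD were the 2 at -0.5 or lower, against 11.3% of all genes. They were also the 2 with a main transcript lower at an unadjusted p under 0.05, against 8.63%. Both main transcripts are low in G and C, at 33.7% for GCSH-210 and 39.3% for DLD-201.

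ATF4 and other genes known as its targets had a median on the higher side, where SHMT2 and ALDH1L2 also lay, while PSAT1, PHGDH and MTHFD2 lay lower. ATF4 stood at 1018 in mutant and 781 in parental libraries (ATF4-202, p 0.00642 in the authors' deposited table). ATF5, a related stress factor, stood at 213 in mutant and 80.9 in parental libraries (ATF5-201, p 0.0742 in the authors' deposited table). CHAC1, a glutathione-degrading enzyme, stood at 85.3 in mutant and 41.1 in parental libraries (CHAC1-204, p 0.0807 in the authors' deposited table). SLC7A11, the cystine importer, lay lower at 10.5 in mutant and 15.1 in parental libraries (SLC7A11-201, p 0.0957 in the authors' deposited table). Of 22 genes 14 lay higher and 8 lower, where 49.4% of all genes lay higher, and the median was 0.42. A ratio of 0.5 or higher was held by 9 of 22 (40.9%), against 11.5% of all genes. Only ATF4 had a main transcript higher at an unadjusted p under 0.05, against 5.17% of all genes. These genes are rich in G and C, with a median of 57.0%, and without the trends on GC and length their median was 0.26.

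**Figure D5:**
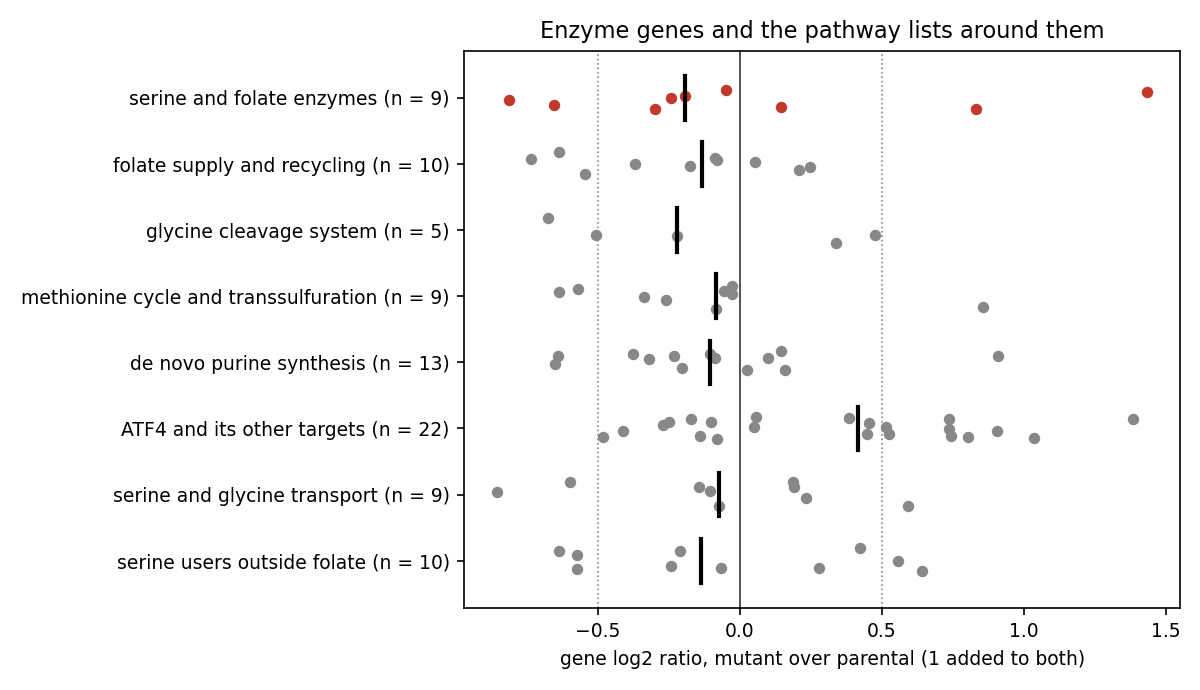
Log2 ratio of gene levels, mutant over parental with 1 added to both, for each measured gene (points) of the serine and folate enzymes (red) and of 7 pathway lists (grey); black ticks are medians, dotted lines mark -0.5 and 0.5, and the vertical scatter only separates points. The enzymes are spread over the whole range, folate supply has a median of -0.13 and ATF4 and its other targets one of 0.42.

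Pathways that use the products had medians close to level. De novo purine synthesis, which takes up formyl groups, had 5 of 13 genes higher and 8 lower, with a median of -0.11. Among all genes 50.6% lay lower. ATIC, which adds the last formyl group, stood at 65.9 in mutant and 85.9 in parental libraries, and GART, which adds the first, at 57.8 in mutant and 66.6 in parental libraries. ADSS, of AMP synthesis, had 14.9 in mutant and 24.0 in parental libraries (ADSS-201, p 0.113 in the authors' deposited table). Its relative ADSSL1 had 3.68 in mutant and 1.49 in parental libraries (ADSSL1-201, p 0.0410 in the authors' deposited table). The methionine cycle and transsulfuration had 1 of 9 genes higher and 8 lower, against the same 50.6%. The median was -0.08, or -0.14 without the trends. A ratio of -0.5 or lower was held by 2 of the 9 (22.2%), MAT2B and CTH, against 11.3% of all genes. CTH stood at 24.5 in mutant and 38.7 in parental libraries (CTH-202, p 0.350 in the authors' deposited table). The gene on the higher side was CBS, which condenses serine with homocysteine, at 84.6 in mutant and 46.2 in parental libraries (CBS-204, p 0.307 in the authors' deposited table). MAT2B, a regulatory subunit of methionine adenosyltransferase, stood at 16.3 in mutant and 24.7 in parental libraries (MAT2B-202, p 0.0514 in the authors' deposited table), MAT2A, the catalytic subunit, at 78.6 in mutant and 99.7 in parental libraries, and AHCYL2 at 4.17 in mutant and 5.20 in parental libraries.

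Transporters of serine and glycine were split. The neutral amino acid importers SLC38A1 (28.1 in mutant and 51.6 in parental libraries) and SLC38A2 (80.1 in mutant and 122 in parental libraries) lay lower. SFXN3, a mitochondrial sideroflexin, lay higher at 7.70 in mutant and 4.78 in parental libraries (SFXN3-205, p 0.0118 in the authors' deposited table). SLC25A38, a mitochondrial glycine carrier, had 21.2 in mutant and 23.5 in parental libraries. In this list 4 of 9 lay higher and 5 lower, where 49.4% of all genes lay higher and 50.6% lower. The median was -0.07, or -0.03 without the trends. Other users of serine were split as well, with 4 of 10 higher and 6 lower, against the same shares of all genes. Their median was -0.14, or -0.07 without the trends. SERINC3, a membrane protein named for serine incorporation, stood at 14.5 in mutant and 22.1 in parental libraries (SERINC3-202, p 0.0133 in the authors' deposited table). SRR, which makes D-serine, stood at 3.83 in mutant and 6.52 in parental libraries (SRR-201, p 0.0185 in the authors' deposited table). SDSL, a serine dehydratase relative, stood at 6.01 in mutant and 3.49 in parental libraries (SDSL-202, p 0.0333 in the authors' deposited table). PTDSS2, a phosphatidylserine synthase, stood at 35.6 in mutant and 23.9 in parental libraries (PTDSS2-201, p 0.0446 in the authors' deposited table).

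Promoters in the RefSeq table (GRCh38.p14, 250 bases before to 50 after each start) were found for 7 of the 10 genes, 11 promoters in all, and were searched on both strands. The core of the element bound by ATF4 with C/EBP factors, TGATGNAA, was found in 3.62% of all 35116 promoters and in 3 of the 11, all of MTHFD1L. The E-box CACGTG, which MYC and related factors bind, was found in 7.26% of all promoters and in 4 of the 11, of MTHFD1L and MTHFD1. Promoters of 1 gene can overlap and share a match. The windows are shown because MTHFD1 and MTHFD1L share the E-box while their ratios differ; capitals mark the motif.
MTHFD1L ATF4 core, chr6:150866346-150866375 (plus strand): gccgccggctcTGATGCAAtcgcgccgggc
MTHFD1L E-box, chr6:150866321-150866348 (plus strand): acgcccggctcCACGTGcgcagccggcc
MTHFD1 E-box, chr14:64388327-64388352 (plus strand): cagtccctaagCACGTGggttgggtt
MTHFD1L, which holds both motifs, had a log2 ratio of 0.15, or 0.17 with the trends on GC and length taken out. MTHFD1, whose E-box begins at position -15 from the RefSeq start, was the lowest at -0.81. In GENCODE the main transcript MTHFD1L-212 begins at 150866333, within the E-box window and before the ATF4 core. The other plotted MTHFD1L transcripts begin before both windows, so the windows need not be the promoter of the measured RNA. The CCAAT box, written CCAAT, was found in 34.6% of all promoters and in 8 of the 11, with at least 1 for each searched gene but ALDH1L1. The E-box and the ATF4 core of MTHFD1L do not overlap. A match of letters is not a bound site. No promoter of PSPH, SHMT2 or ALDH1L2 was used here.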

How the data were processed

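RNA came from an RNeasy kit and was made into libraries by the NEBNext Ultra method, per the labels' protocols. Per the submitters' processing notes, bcl2fastq, STAR and Partek were used with the genome build hg38; their versions, parameters and filters are not given in the sources used here. In all, the deposited table held 203376 transcripts, 140552 with group means and p-values. The LSMean of each group is a score made by the authors, a mean of abundance plus 1. Division by length was inferred from the values: in genes with 1 transcript, the 5th percentile of the summed group means was 0.0140 at a median length of 291 bases and 0.00279 at 1977 bases, with little further decline to 0.00271 at 3467 bases. The deposited signal named total counts held fractions and matched 3 times both group means added. The deposited p-values, adjusted p-values, ratios and fold changes are the authors' own and are held as scores because some cells hold no number. Benjamini-Hochberg adjustment over the 140552 p-values gave the deposited adjusted values again.

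Here 1 was taken off each mean, transcripts were summed per gene (those without means were counted as 0, since their total showed no signal), and log2 ratios were taken after 1 was added. A gene was kept where its sum reached 1 in a group. Transcript types, positions, length and GC content came from GENCODE release 29 on the same build, in which 99.1% of transcript names were found; a gene's GC content and length were those of its most abundant transcript. Trends on GC content and length were running medians over 40 bins, averaged over 5. Removal of the GC trend was tested on simulated data, which held no length trend. Python 3.11.15 with pandas 2.3.3 was used. Single-library depth was not analysed, and intervals could not be computed from group means.

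The genes and lists were chosen with earlier results of these data known. Every enzyme was named. Enzyme transcripts were plotted at a level of at least 1, or at an unadjusted p under 0.05 and a level of at least 0.2. In the text, all transcripts of the second kind were named. Of the other plotted transcripts only some were named, and many with a larger p-value were not. The transcripts named in the text are therefore not a full account. Of each list, up to 4 genes with the smallest p-values were named. CASP8AP2, pseudogenes, DDIT3, R3HDM2 and CTH were named outside these rules. DDIT3, R3HDM2 and CTH were named after their values were seen, and CBS was singled out by its direction. From the folate supply list 1 item and its near copy are not reported here and were left out of its counts. The alternatives are given with their effect in the closing section.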

Additional observations from a re-analysis of the deposited data

How the results depend on the processing

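With 0.1 or nothing added before the log2 ratio, with the most abundant or the protein-coding transcripts alone, and with GC and length trends taken out, each of the 9 measured enzymes kept its direction and its side of 0.5. The median over them ran from -0.23 to -0.06. The 2 genes at -0.5 or lower and the 2 at 0.5 or higher stayed 2 under a gene sum of at least 5 and with no filter. At a log2 ratio of -1 or lower the count was 0, and below 0 it was 6. At 1 or higher it was 1. An unadjusted p under 0.01 was held by 4 enzyme transcripts. The 7 other list medians kept their signs with the trends taken out. Checks on the higher genes and on the list medians were chosen after seeing the data. No paired analysis was possible because the deposited values are group means, and for the same reason leaving out single replicates was not run. Depth limits low transcripts most, and the groups differ in how many they show.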
